A study of Mus musculus with 6 samples.

Results

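The Hox genes encode homeodomain transcription factors that give cells a position along the body axis and along the limb. The members described here are the 33 genes, of 26969 in the deposited gene table, whose symbol is Hox followed by the cluster letter a, b, c or d and a paralogue number. They comprise 11 Hoxa, 9 Hoxb, 7 Hoxc and 6 Hoxd genes, and were selected by name alone. Hoxb1, Hoxc11, Hoxc12, Hoxd10, Hoxd11 and Hoxd12 had no row by these names in the deposited gene table and were not analysed here. All of these but Hoxb1 are posterior genes, so the posterior sums below leave them out. The series measured poly(A) RNA in 6 libraries from mouse chondrocytes, the matrix-producing cells of cartilage, of wild-type genotype. By its sample labels it compared cells given vehicle with cells given mitochondria, which the series title ties to osteocytes. The libraries form 2 groups of 3, named mAC and mAC_Mito after their descriptions. The remaining labels say the opposite: the mAC_Mito libraries are titled and annotated as vehicle, and the mAC libraries as mitochondria-treated. Differences are therefore given as mAC_Mito minus mAC, and no direction is read as an effect of mitochondria. The sources used here do not give strain, age, anatomical site, dose or time, and the extraction protocol mentions an adipose type. No label states whether a replicate is its own culture or animal, so the p-values reflect the spread among these 6 libraries alone, and part of it may be technical.

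In the mouse the Hox genes lie in 4 clusters, each on its own chromosome. Within a cluster the genes share a direction of transcription, and in the embryo those with low paralogue numbers are switched on earlier and reach farther toward the head than those with high numbers. Skeletal cells keep much of this pattern after birth, so that cartilage and bone from different sites carry different sets of Hox transcripts: central genes mark the neck and trunk, posterior genes the lower trunk, tail and distal limbs, and much of the facial skeleton comes from Hox-negative neural crest. Transcription of the clusters is opened by retinoic acid and trithorax proteins and kept silent by polycomb complexes. MicroRNAs of the miR-10 and miR-196 families lie inside the clusters and can pair with Hox messages.

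The sequences that follow show matches to miR-196 in the members themselves. The miR-10 sequences are printed alongside, and no match to miR-10 is given here. Mature sequences are from RefSeq, with the seed, bases 2 to 8, in capitals.

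mmu-miR-196a-5p: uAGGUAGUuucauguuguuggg

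mmu-miR-196b-5p: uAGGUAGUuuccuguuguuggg

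mmu-miR-10a-5p: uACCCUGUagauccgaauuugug

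mmu-miR-10b-5p: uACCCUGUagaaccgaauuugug

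The pair of miR-196 sequences share a seed, and so do the pair of miR-10 sequences. The 8 letters ACTACCTA, which pair with bases 1 to 8 of miR-196, were looked for on the transcript strand of the longest annotated 3′UTR (GENCODE M21, GRCm38). They were found in 5 of 33 members (15.2%), Hoxa5, Hoxa7, Hoxb6, Hoxb7 and Hoxc8, and in 194 of 14137 tested genes with such a UTR (1.37%). The median UTR length was 966 bases in the members and 1172 bases in the tested genes. Hoxa7 held 4 matches and each of the others 1. The 3 members with matches that were also among the highest in level are shown with the match in capitals, and Hoxb8 follows with every base that pairs with miR-196a-5p in capitals.

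Hoxa7, chr6:52215210-52215231, minus strand: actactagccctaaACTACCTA

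Hoxc8, chr15:102993733-102993754, plus strand: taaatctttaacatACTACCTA

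Hoxa5, chr6:52202118-52202139, minus strand: atatttttattcaaACTACCTA

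Hoxb8, chr11:96284888-96284909, plus strand: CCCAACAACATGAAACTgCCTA

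In Hoxb8, 21 of 22 bases were complementary to miR-196a-5p. The exception was A18G, counted from 1 at the 5′ end of the perfect complement. Of 14109 tested genes whose UTR could be scanned, 1 reached 21 paired bases, and this gene was Hoxb8, while the median best match was 13 bases. In the other members the best match ran from 10 to 15 paired bases. These matches describe sequence only. The libraries were poly(A)-selected and the mature microRNAs were not measured, and the precursor gene Mir196a-1 had 0 to 3 counts per library.

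Levels were compared between genes in FPKM, the fragment count scaled by transcript length and by library size. Of the 33 members, 16 had a mean of at least 1 FPKM over the 6 libraries, namely 7 Hoxa, 4 Hoxb, 5 Hoxc and 0 Hoxd genes, and 15 of them reached 1 FPKM in every library. At the low end 8 members had a mean below 0.1 FPKM. The summed level of all 33 members was 132.9 FPKM on average. The Hoxa cluster held 49.6 to 53.9% of that sum depending on the library, Hoxc 36.7 to 41.5%, Hoxb 7.54 to 8.67% and Hoxd 0.650 to 1.08%. By paralogue class, the central genes of groups 5 to 8 held 81.3 to 83.0%, the anterior genes of groups 1 to 4 held 13.9 to 15.3%, and the posterior genes of groups 9 to 13 held 3.14 to 3.46%. A set of 4 genes, Hoxa7, Hoxc6, Hoxc8 and Hoxa5, made up 68.6 to 72.6% of the sum. These RNAs come from bulk cells, so that few cells with much RNA of a gene and many cells with little cannot be told apart.

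**Figure D1:**
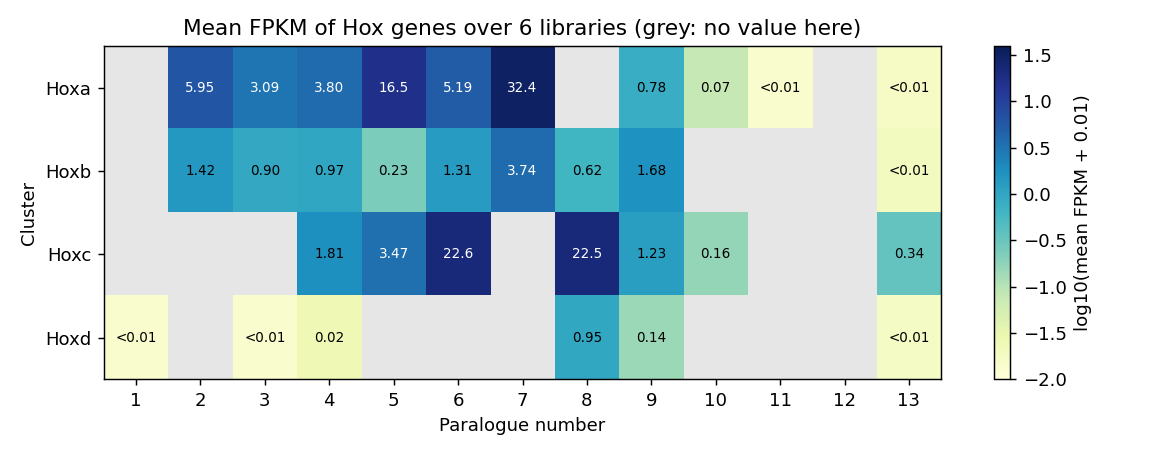
Mean FPKM over the 6 libraries for the Hox genes, by cluster (one line of cells each) and paralogue number (horizontal), with darker cells for higher values on a log scale and grey where no value is given here. The darkest cells are Hoxa5, Hoxa7, Hoxc6 and Hoxc8, and the cells of paralogues 10 to 13 stay below 0.5 FPKM.

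Hoxa7 had the highest level of any member. It lies at chr6:52214491-52221854 on the minus strand (GRCm38) and takes part in patterning thoracic vertebrae. Its level was 31.7, 35.1 and 26.6 FPKM in mAC libraries 1 to 3 and 37.5, 30.4 and 32.9 FPKM in mAC_Mito libraries 1 to 3. The groups overlapped, with the lowest value in mAC and the highest in mAC_Mito. The group means were 31.1 ± 4.26 FPKM for mAC and 33.6 ± 3.60 FPKM for mAC_Mito (n = 3 each, SD), which placed the gene at the 94.84th percentile of all genes in the table.

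Hoxc6 (chr15:102998257-103010768) and Hoxc8 (chr15:102990607-102994111), thoracic patterning genes on the plus strand, came next. Hoxc6 measured 27.0, 24.1 and 17.4 FPKM in mAC and 26.7, 17.6 and 22.7 FPKM in mAC_Mito. Hoxc8 measured 24.2, 23.5 and 19.7 FPKM in mAC and 25.6, 19.9 and 22.0 FPKM in mAC_Mito. In both genes the groups covered nearly the same span, and mAC library 3 and mAC_Mito library 2 were the lowest of their groups. The ratio of Hoxc6 to Hoxc8 was between 0.883 and 1.11 in the 6 libraries, and Hoxc6 was the higher in 4 of 6, so the order of this pair was not resolved. Hoxa7 exceeded Hoxc6 in 6 of 6 libraries, although their ranges overlapped.

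Hoxa5 (chr6:52201754-52204587, minus strand) patterns the vertebrae at the passage from neck to thorax, and the lung. It measured 16.1, 17.3 and 14.6 FPKM in mAC and 19.6, 14.97 and 16.8 FPKM in mAC_Mito. Its range lay wholly below that of Hoxc8 and wholly above that of the next gene, Hoxa2. The step from Hoxa5 to Hoxa2 divided the 4 high genes from the rest.

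**Figure D2:**
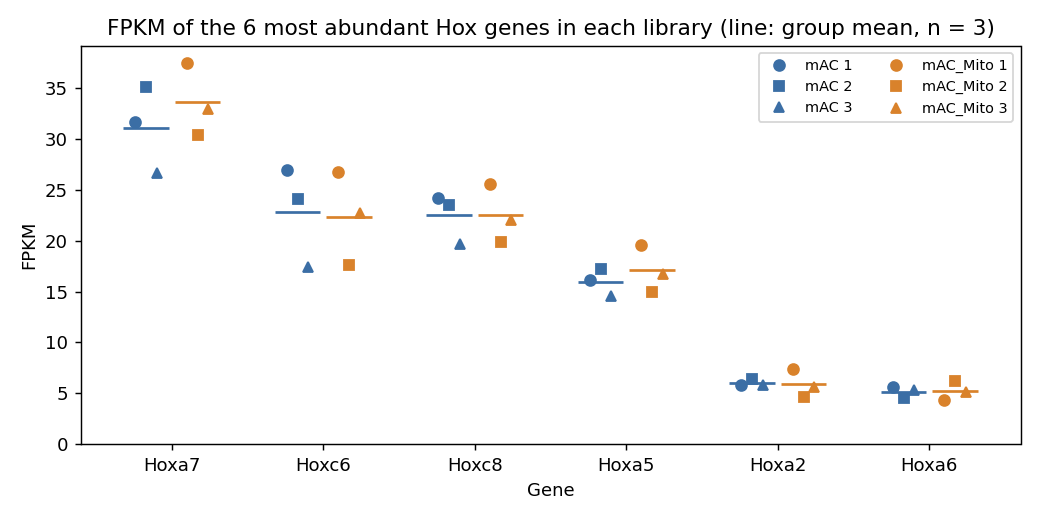
FPKM of the 6 members with a mean of at least 5 FPKM, with 1 point per library and a bar at each group mean. For each of Hoxa7, Hoxc6, Hoxc8, Hoxa5, Hoxa2 and Hoxa6 the points of the mAC and mAC_Mito libraries overlap.

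Hoxa2, which patterns the hindbrain and the second pharyngeal arch and has one of the most anterior expression limits of the family, was the highest anterior gene in FPKM. It measured 5.85, 6.39 and 5.81 FPKM in mAC and 7.36, 4.68 and 5.62 FPKM in mAC_Mito. Hoxa6 measured 5.67, 4.50 and 5.35 FPKM in mAC and 4.31, 6.20 and 5.09 FPKM in mAC_Mito. Hoxa2 was above Hoxa6 in 5 of 6 libraries. Of the other anterior genes, Hoxa4 averaged 3.80 FPKM and Hoxa3, which acts in the third pharyngeal arch, 3.09 FPKM. In counts Hoxa3 stood above Hoxa2, at 980 to 1686 against 563 to 997 per library. The transcript length implied by counts and FPKM was 6.91 kb for Hoxa3 and 2.04 kb for Hoxa2. Hoxa3 overlaps Hoxa4, Hoxa5 and Hoxa6 in its gene model, as Hoxc5 does with Hoxc6, Hoxc8, Hoxc9 and Hoxc10. Reads in the shared stretches may have been assigned to either gene, since the sources used here do not state the counting rule.

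Along the Hoxa cluster on chromosome 6 the level dropped sharply between Hoxa7 and Hoxa9. Hoxa7 was 34.9 to 46.6 times as high as Hoxa9 in the 6 libraries, with the gene starts 9235 bp apart. The implied transcript length was 3.30 kb for Hoxa7 and 6.42 kb for Hoxa9, so the step was smaller in counts. These were 5472 to 8227 per library for Hoxa7 and 275 to 420 for Hoxa9. Hoxa9 averaged 0.785 FPKM and Hoxa10, a gene of the lumbar region, 0.0698 FPKM. Hoxa11, which patterns the forearm and lower leg, had 4 counts in 1 library and 0 in the other 5, and Hoxa13, a digit and genital gene, had 7 counts in 1 library and 0 in the other 5. Where a library had 0 counts, up to 3 counts, or 0.0439 to 0.0507 CPM (counts scaled to library size), remain possible, a limit that covers counting error only. Below Hoxa7 in paralogue number the order was not even, since Hoxa6 stood at 0.115 to 0.204 times its neighbour Hoxa7.

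The Hoxc cluster (chr15:102921103-103036852) showed a similar step between Hoxc8 and Hoxc9. Hoxc8 was 13.5 to 23.2 times as high as Hoxc9, which averaged 1.23 FPKM, with the gene starts 14168 bp apart. Hoxc10, a gene of the lumbar cord and hindlimb, averaged 0.156 FPKM and ranged from 4 to 36 counts. On the anterior side Hoxc5 averaged 3.47 FPKM and Hoxc4 1.81 FPKM. Hoxc13, at the posterior end and known for its role in hair and nails, averaged 0.339 FPKM and so stood above Hoxc10.

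The Hoxb cluster (chr11:96194316-96354012) had lower and more even levels. Hoxb7 led with 3.74 FPKM and a range of 3.29 to 3.98 FPKM. Hoxb9, which acts with its paralogues on the ribs and sternum, averaged 1.68 FPKM, Hoxb2 1.42 FPKM and Hoxb6 1.31 FPKM. Below 1 FPKM stood Hoxb4 at 0.975, Hoxb3 at 0.896, Hoxb8 at 0.616 and Hoxb5, which positions the shoulder girdle, at 0.229 FPKM. Hoxb8 was below Hoxb7 by a factor of 4.75 to 8.85. Unlike in the Hoxa and Hoxc clusters, the gene of group 9 that followed was higher. Hoxb13, a gene of the tail end and prostate, had at most 6 counts in any library.

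In the Hoxd cluster (chr2:74668310-74765142) only Hoxd8 came near 1 FPKM, with a mean of 0.945 FPKM and a range of 0.776 to 1.13 FPKM. Hoxd9 averaged 0.139 FPKM. The other 4 genes, Hoxd1, Hoxd3, Hoxd4 and the digit gene Hoxd13, had at most 10 counts in any library. Across the 4 clusters the 7 members of paralogue groups 10 to 13 reached at most 0.540 FPKM in any library, a value of Hoxc13.

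The start regions of these genes were compared with RefSeq promoter windows of 300 bases (250 before to 50 after the start, GRCm38), which matched 18 of 33 members in 19 windows. The window of Hoxa5, one of the 4 high genes, and that of Hoxa13, which was near 0 in the same cluster, are printed with every CG in capitals.

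Hoxa5 promoter, chr6:52204538-52204837, minus strand: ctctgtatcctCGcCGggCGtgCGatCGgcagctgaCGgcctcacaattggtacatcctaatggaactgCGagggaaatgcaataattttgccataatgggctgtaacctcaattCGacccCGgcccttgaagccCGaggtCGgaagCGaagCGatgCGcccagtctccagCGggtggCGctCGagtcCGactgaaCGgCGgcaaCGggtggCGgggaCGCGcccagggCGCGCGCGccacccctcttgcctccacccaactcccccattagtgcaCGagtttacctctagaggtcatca

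Hoxa13 promoter, chr6:52260831-52261130, minus strand: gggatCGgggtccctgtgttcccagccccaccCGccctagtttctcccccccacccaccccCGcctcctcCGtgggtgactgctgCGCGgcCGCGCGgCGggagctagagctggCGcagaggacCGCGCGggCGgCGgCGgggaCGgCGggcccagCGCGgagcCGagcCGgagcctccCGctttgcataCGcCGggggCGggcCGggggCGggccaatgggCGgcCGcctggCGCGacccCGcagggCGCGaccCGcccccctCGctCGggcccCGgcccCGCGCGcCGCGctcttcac

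Hoxa5 held 29 CG dinucleotides, the most among windows of members with at least 1 FPKM. Hoxa13 held 45, the most of the 19 windows. The window of Hoxa7, the highest member, held 9, and Hoxc6 and Hoxc8 had no window. The median was 15 over the 19 windows and 7.00 over all 32851 windows. It was 14.5 in the 6 windows of members with at least 1 FPKM and 15 in the 13 windows of members below it. The letters TGATTNAT, a form of the site bound by Hox proteins together with Pbx, were searched on both strands and occurred in 1 of 19 windows, that of Hoxa2, and in 3.22% of all windows. A direct repeat of AGGTCA spaced by 5 bases, a form of the retinoic acid response element, was in 0 of 19 windows and in 0.00913% of all windows. A match is a description of these windows and not of binding.

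The total Hox level varied among the libraries of each group. The sum was 141.8, 139.2 and 114.1 FPKM in mAC and 150.7, 119.1 and 132.8 FPKM in mAC_Mito. The groups overlapped, with means of 131.7 ± 15.3 and 134.2 ± 15.8 FPKM (n = 3 each, SD). Of the 16 members with a mean of at least 1 FPKM, 7 were lowest in mAC library 3 and 4 in mAC_Mito library 2, while 5 were highest in mAC library 1 and 4 in mAC_Mito library 1. Over the 11738 tested genes with a mean of at least 1 FPKM, mAC library 3 was the lowest for 11.5% and mAC_Mito library 2 for 12.0%, while mAC library 1 was the highest for 11.7% and mAC_Mito library 1 for 7.51%. The library lowest for the most genes was mAC library 1, at 40.7%. The counts on the 13 messenger genes of the mitochondrial genome moved with the Hox sum: their share of the counts was 7.31, 4.71 and 3.13% for mAC against 5.60, 2.91 and 3.40% for mAC_Mito, and the 3 libraries with the highest share were the 3 with the highest Hox sum. The summed level of 10 chondrocyte markers was 1851, 1842 and 2120 FPKM in mAC and 1690, 2631 and 2424 FPKM in mAC_Mito, and thus lowest in the same 3 libraries. Most of that sum was Col2a1, and the markers differed. Col2a1, Col11a1, Matn3 and Comp were lowest in the same 3 libraries, while Hapln1 was highest in them. Acan, Col9a1, Sox9 and Snorc did not split that way. The part of the mitochondrial counts or of the chondrocyte markers in the Hox levels was not tested. The coefficient of variation over the 6 libraries had a median of 14.6% in the 16 members, against 11.8% in all genes of at least 1 FPKM.

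**Figure D3:**
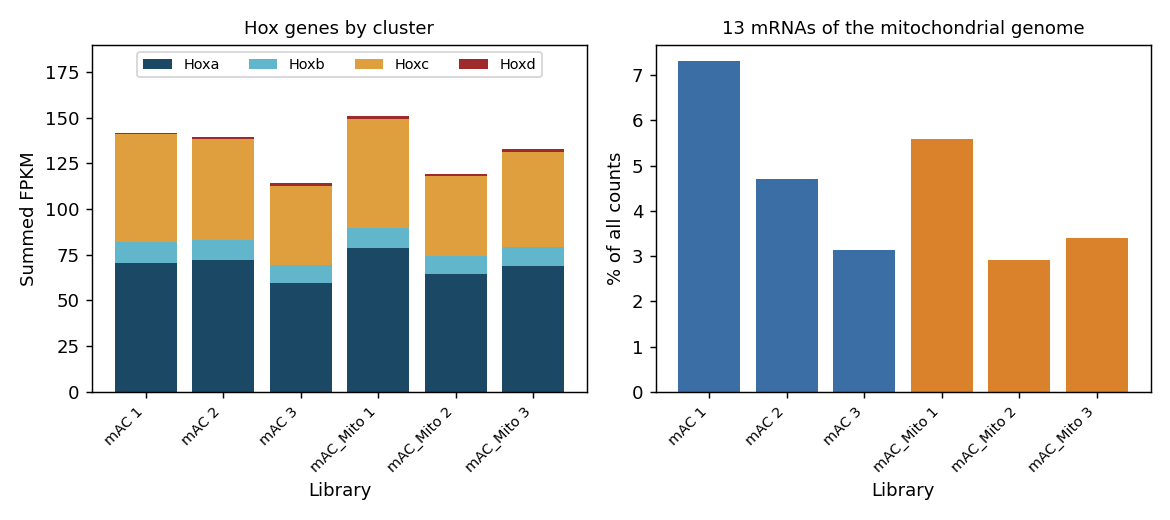
Left, FPKM of the Hox genes summed by cluster and stacked for each of the 6 libraries; right, the percentage of all counts on 13 mitochondrial messenger genes in the same libraries. The libraries mAC 1, mAC 2 and mAC_Mito 1 are the highest in both panels, and mAC 3 has the lowest Hox total, 114.1 FPKM.

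No Hox gene passed the test between the groups. Counts of 26 members passed the low-count filter, 9 Hoxa, 8 Hoxb, 7 Hoxc and 2 Hoxd genes, and 0 of these 26 passed an adjusted p of 0.05 in edgeR's quasi-likelihood test with Benjamini-Hochberg adjustment over 17645 genes. Over all genes tested 2 passed, or 0.0113%. DESeq2 and limma likewise called 0 members. An unadjusted p under 0.05 was reached by 2 of 26 members, Hoxc13 and Hoxd9, against 3.19% of all genes tested. Separation of the libraries was counted in CPM normalised as in the test. On that scale the same pair were the members whose mAC_Mito libraries all lay above all mAC libraries, against 3.93% of all genes. Of the 26 members, 0 lay wholly below, against 4.38%. In FPKM Hoxb3 was separated too, at 0.8924, 0.8457 and 0.6471 in mAC and 0.9196, 1.166 and 0.9025 in mAC_Mito. Its normalised CPM overlapped, and its unadjusted p in edgeR's quasi-likelihood test was 0.190. The log2 fold change was above 0 in 12 members and below 0 in 14, with a median of -0.02 against 0.002 over all genes tested. With 26 members these counts single out no more than the genes themselves. The 7 members not tested, Hoxa11, Hoxa13, Hoxb13, Hoxd1, Hoxd3, Hoxd4 and Hoxd13, had at most 10 counts in any library. Among them Hoxd4, which patterns the neck vertebrae, had 10, 3 and 8 counts in mAC and 0, 1 and 0 counts in mAC_Mito, so that all mAC_Mito libraries lay below all mAC libraries. Without the low-count filter its unadjusted p was 0.0404 and its Benjamini-Hochberg adjusted p 0.83681 in edgeR's quasi-likelihood test. It was the 1 member with an unadjusted p under 0.05 that was lower in mAC_Mito, and its gene model overlaps that of Hoxd3.

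For the 16 members with at least 1 FPKM the data set limits on the difference. Their log2 fold changes ran from -0.36 for Hoxc9 to 0.28 for Hoxb6, and all 95% intervals lay between -0.92 and 0.77, or 0.528-fold to 1.70-fold. Hoxa7 had a log2 fold change of 0.09 (SE 0.147, interval -0.239 to 0.419) and Hoxa5 one of 0.08 (interval -0.245 to 0.408). Hoxc8 was at -0.02 (interval -0.357 to 0.320), Hoxc6 at -0.05 (interval -0.539 to 0.432), Hoxa2 at -0.04 (interval -0.458 to 0.373) and Hoxa6 at -0.02 (interval -0.439 to 0.394). The adjusted p of each of these 6 genes was 0.99992 in edgeR's quasi-likelihood test with Benjamini-Hochberg adjustment. By cluster, the log2 ratio of the summed FPKM was 0.07 for Hoxa, -0.02 for Hoxb, -0.02 for Hoxc and 0.21 for Hoxd, with a within-group SD on the log2 scale, averaged over the groups, of 0.148, 0.105, 0.227 and 0.248. With 1 library left out these ratios ran from -0.019 to 0.128, from -0.087 to 0.037, from -0.139 to 0.088 and from 0.105 to 0.359. The sign turned for Hoxa without mAC library 3 or mAC_Mito library 1, for Hoxb without mAC library 1 or mAC_Mito library 2, and for Hoxc without mAC library 1 or 2 or mAC_Mito library 2. The Hoxd ratio was lowest without mAC_Mito library 1, at 0.105, was 0.124 without mAC library 2, and was highest without mAC library 3, at 0.359, or mAC_Mito library 2, at 0.342. For each of these 6 genes the sign turned when 1 library was left out, as listed with the processing alternatives.

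**Figure D4:**
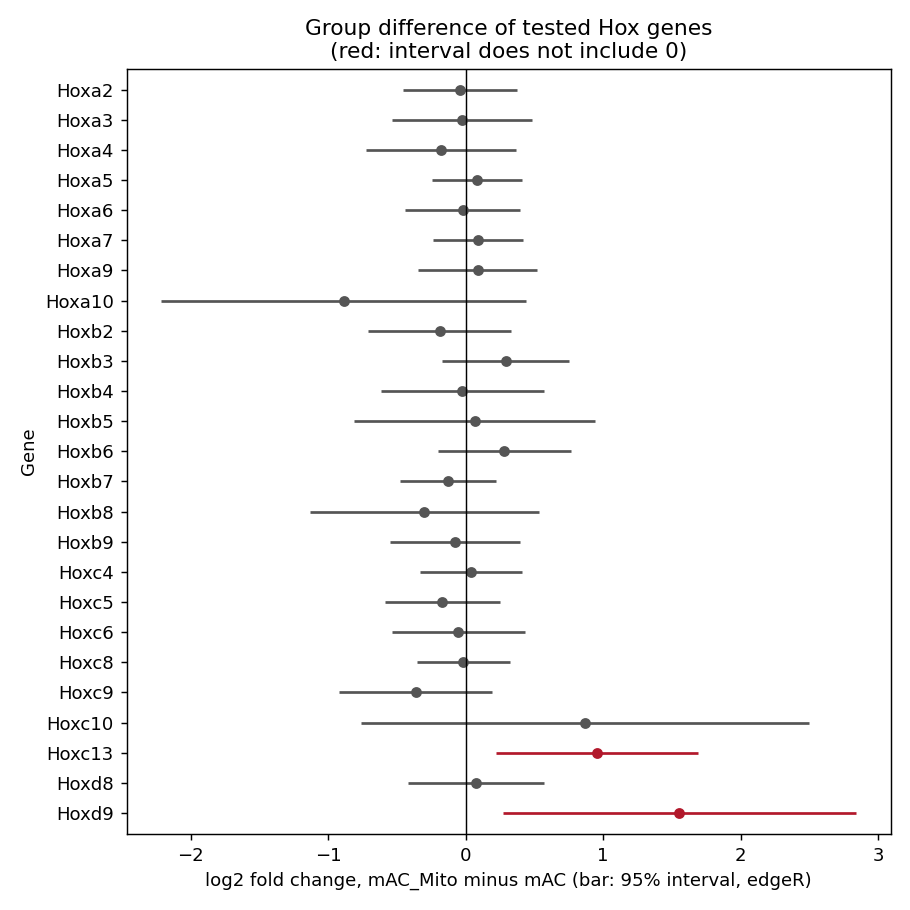
Log2 fold change (mAC_Mito minus mAC) of tested Hox genes with 95% intervals from edgeR's quasi-likelihood fit, ordered by cluster and paralogue number. The intervals of Hoxc13 and Hoxd9 lie above 0 and those of the other genes drawn include 0.

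Hoxc13 (chr15:102921103-102928814) had 39, 39 and 47 counts in mAC and 102, 65 and 72 counts in mAC_Mito. In normalised CPM these were 0.685, 0.569 and 0.731 against 1.61, 1.07 and 1.18. All mAC_Mito libraries were above all mAC libraries, with the first mAC_Mito library apart from the other two. The log2 fold change was 0.96 (SE 0.327, interval 0.221 to 1.69), or 1.94-fold. In edgeR's quasi-likelihood test the unadjusted p was 0.0162 and the Benjamini-Hochberg adjusted p 0.99992. Without mAC library 2 the unadjusted p was 0.0523 and without mAC_Mito library 1 it was 0.0723.

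Hoxd9 (chr2:74697727-74700208), which acts in the limb and the lower spine, had 11, 12 and 11 counts in mAC and 47, 15 and 37 counts in mAC_Mito. The normalised values were 0.193, 0.175 and 0.171 CPM against 0.741, 0.247 and 0.604. Libraries 1 and 3 of mAC_Mito were high, and library 2 lay close to the mAC libraries. The log2 fold change was 1.55 (SE 0.572, interval 0.268 to 2.84), or 2.93-fold, with an unadjusted p of 0.0228 and a Benjamini-Hochberg adjusted p of 0.99992 in edgeR's quasi-likelihood test. The unadjusted p was 0.115 without mAC_Mito library 1, 0.0731 without mAC_Mito library 3, 0.0628 without mAC library 2 and 0.0589 without mAC library 3.

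**Figure D5:**
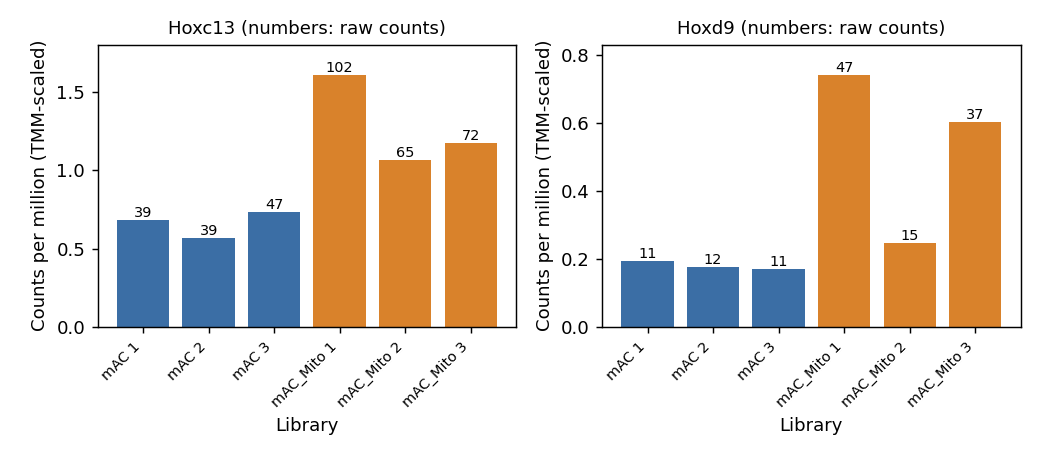
Normalised CPM of Hoxc13 and Hoxd9 in each of the 6 libraries, with 1 bar per library and its raw count above the bar. For both genes the 3 mAC_Mito bars are higher than the 3 mAC bars, and the second mAC_Mito library of Hoxd9 (0.247) is close to the mAC range.

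Hox proteins bind DNA with cofactors of the TALE class, the Pbx, Meis and Pknox homeodomain proteins. All 9 listed cofactors were tested and 0 were called, with a median log2 fold change of -0.005 against 0.002 over all genes tested. Pbx2 averaged 7.63 FPKM, Pbx3 5.43 FPKM and Meis3 4.09 FPKM. The libraries did not overlap for Meis1, which was higher in mAC_Mito (log2 fold change 0.16), nor for Pbx4, which was lower (-0.64). That is 1 of 9 cofactors each way, against 3.93% of all genes tested wholly higher and 4.38% wholly lower. For Meis1 and Pbx4 the unadjusted p in edgeR's quasi-likelihood test was 0.110 and 0.149, and Pbx4 had 22 to 69 counts per library. Of the RNAs made from inside the clusters, 7 of the 17 listed were in the table and 5 were tested, with 0 called and a median of 0.29. Among those listed, Hotairm1, transcribed from the opposite strand of the Hoxa cluster, averaged 3.27 FPKM, Hoxaas2 1.11 FPKM and Hoxaas3 0.544 FPKM. Gm15050, an antisense RNA of the Hoxa cluster outside the list, averaged 6.37 FPKM. Hoxb3os had 12, 21 and 20 counts in mAC and 33, 70 and 30 counts in mAC_Mito, a log2 fold change of 1.37 with an unadjusted p of 0.0248 and a Benjamini-Hochberg adjusted p of 0.99992 in edgeR's quasi-likelihood test. Without mAC_Mito library 2 the log2 fold change was 0.86 and the unadjusted p 0.174, and without mAC library 1 the unadjusted p was 0.0649. It runs antisense to part of the Hoxb cluster, and no source used here says whether counting used strand. Its reads and those of the overlapping sense genes may therefore not be separable. The same limit holds for Hoxaas2, Hoxaas3 and Gm15050 in the Hoxa cluster.

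Other positional genes were read from lists. Of 31 limb and girdle factors 29 were in the table and 27 were tested, with 0 called and a median log2 fold change of 0.06. The genes that distinguish the limbs were low: the hindlimb factors Pitx1 and Tbx4 had 15 to 28 and 11 to 46 counts per library, and the forelimb factor Tbx5 had 8 to 19. Prrx2 and Prrx1, early limb and face mesenchyme factors, averaged 35.4 and 28.0 FPKM, and Hmga2 11.0 FPKM. Tbx3, a limb patterning gene, measured 2.31 ± 0.145 FPKM for mAC and 2.89 ± 0.440 FPKM for mAC_Mito (n = 3 each, SD), with a log2 fold change of 0.30. Its unadjusted p was 0.0309 and its Benjamini-Hochberg adjusted p 0.99992 in edgeR's quasi-likelihood test. The unadjusted p was 0.0524 to 0.134 without any 1 library other than mAC_Mito library 1, and 0.0808 and 0.0787 in limma. Of 22 cranial neural crest and face factors 14 were tested with 0 called and a median of 0.01, and Alx1, a frontonasal gene, averaged 17.3 FPKM and Dlx5 2.09 FPKM. Of 9 axial skeleton factors 6 were tested with 0 called and a median of 0.10. There Gdf11, which sets the passage from trunk to lower spine, averaged 3.07 FPKM, Meox1 1.75 FPKM, and the sclerotome genes Pax1 and Pax9 averaged 0.244 and 0.224 FPKM. The list of 9 other homeobox genes beside the clusters had 0 genes in the table, and of 15 neighbouring genes 13 were tested with 0 called and a median of -0.03.

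Among the regulators of the clusters no gene was called. All 19 polycomb proteins were tested, with a median log2 fold change of 0.02. Bmi1 and Rnf2, parts of the complex that ubiquitinates histone H2A, averaged 13.6 and 13.3 FPKM, Phc2 11.8 FPKM and the histone H3 methyltransferase Ezh2 5.81 FPKM. All 15 trithorax, demethylase and related genes were tested, with a median of -0.02. The cohesin subunits Rad21 and Smc1a averaged 44.8 and 17.6 FPKM, and Dpy30 21.6 FPKM. Kmt2d, a histone methyltransferase, measured 0.706 ± 0.149 FPKM for mAC and 1.04 ± 0.308 FPKM for mAC_Mito (n = 3 each, SD), with overlapping libraries, a log2 fold change of 0.53, an unadjusted p of 0.0315 and a Benjamini-Hochberg adjusted p of 0.99992 in edgeR's quasi-likelihood test. The unadjusted p was 0.0889 and 0.103 in limma, and 0.0524, 0.121, 0.119 and 0.111 without mAC library 1, mAC library 2, mAC_Mito library 2 and mAC_Mito library 3. Of 19 retinoic acid genes 16 were tested, with a median of 0.06. Cyp26b1, which degrades retinoic acid, measured 5.72 ± 0.261 FPKM for mAC and 7.48 ± 1.18 FPKM for mAC_Mito (n = 3 each, SD), a log2 fold change of 0.36 with an unadjusted p of 0.0120 and a Benjamini-Hochberg adjusted p of 0.99992 in edgeR's quasi-likelihood test. Without mAC_Mito library 3 the unadjusted p was 0.0580. The receptor Rarg averaged 26.8 FPKM the retinol carrier Rbp4 40.1 FPKM and the retinal reductase Dhrs3 17.7 FPKM. DESeq2 also called 0 genes of these lists.

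The label of the cells was checked against marker lists. All 10 chondrocyte markers were at 1 FPKM or above, with Col2a1 at 951 to 1662 FPKM and Sox9 at 17.7 to 25.1 FPKM. The osteocyte genes Dmp1 and Sost were at most 0.104 and 0.0489 FPKM, and nearly all of the osteocyte list's sum was Pdpn, at 34.7 to 60.1 FPKM. Transcripts of other types were present: the macrophage gene Lyz2 at 49.0 to 96.4 FPKM, the adipocyte genes Fabp4 at 28.1 to 53.8 and Adipoq at 12.4 to 21.4 FPKM, and the muscle gene Acta1 at 11.2 to 19.3 FPKM. A mean of at least 1 FPKM was reached by 3 of 7 macrophage and leukocyte, 6 of 6 adipocyte, 5 of 8 muscle and 0 of 5 endothelial markers. The leukocyte gene Ptprc reached 0.092 FPKM and the endothelial gene Pecam1 0.115 FPKM. In these 7 marker lists 0 genes were called, and no list's summed FPKM separated the groups: the ranges in mAC and mAC_Mito were 61.6 to 79.2 and 67.9 to 111.0 for 7 macrophage and leukocyte markers, 62.5 to 97.5 and 83.2 to 102.9 for 6 adipocyte markers, 29.0 to 42.8 and 38.0 to 43.4 for 8 muscle markers, 43.2 to 60.2 and 34.9 to 49.4 for 5 osteocyte markers, 0.278 to 0.370 and 0.264 to 0.422 for 5 endothelial markers, and 44.2 to 47.1 and 43.0 to 50.7 for 4 glial markers. Itgam and Lpl had unadjusted p of 0.0340 and 0.0288 and a Benjamini-Hochberg adjusted p of 0.99992 each in edgeR's quasi-likelihood test, with log2 fold changes of 0.80 and 0.26. Without 1 library the unadjusted p reached 0.137 for Itgam (mAC_Mito library 1 left out) and 0.127 for Lpl (mAC_Mito library 3 left out). It was also above 0.05 for Itgam without mAC library 2 or mAC_Mito library 3, and for Lpl without mAC library 1 or 2 or mAC_Mito library 1, and in limma. The median log2 fold change was 0.29 for the macrophage and leukocyte markers, 0.29 for muscle, 0.21 for endothelial, 0.17 for adipocyte, 0.05 for chondrocyte, 0.03 for glial and -0.01 for osteocyte markers, against 0.002 over all genes tested. The log2 fold change was above 0 in 6 of 7 tested macrophage and leukocyte, 7 of 7 muscle, 6 of 6 adipocyte, 4 of 5 endothelial, 6 of 10 chondrocyte, 3 of 4 glial and 1 of 2 osteocyte markers. The mAC_Mito libraries lay above all mAC libraries for Itgam, Adgre1 and Lpl. These were 2 of 7 macrophage and leukocyte markers and 1 of 6 adipocyte markers, against 3.93% of all genes tested. The part of these cell types in the Hox levels was not tested.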

How the data were processed

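Poly(A) RNA of 6 wild-type mouse chondrocyte libraries (2 groups of 3, by description) was sequenced in pairs. The deposited gene table gives each gene's count and FPKM per library, per the file headers. The submitters' processing notes name Bowtie 0.12.2, HISAT2 2.0, StringTie 1.3.0 and build mm8, with no roles. The deposited coordinates are those of GRCm38: all 33 members were in GENCODE M21, 31 with the same start and end. How the authors made the counts, and whether by strand, is not given in the sources used here.

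Deposited counts totalled 59116068 to 68378213 per library. Differences were tested with edgeR 4.0.16 (R 4.3.3; quasi-likelihood, TMM scaling, minimum count 10 and total 15) on 17645 genes, with Benjamini-Hochberg adjustment and a threshold of 0.05. The scripts were tested on simulated data. Levels, sums and ratios used the authors' FPKM values as deposited, with a mean of 1 FPKM as the expression limit. Alternatives were DESeq2 1.42.0, limma 3.58.1 on log2 FPKM, other filters, a replicate block and each library left out. The members and 17 lists were chosen with earlier results of these data known. Every member was counted, and 1 member and 1 listed gene are not reported here by name. Members with a mean of at least 5 FPKM are given in every library. So are those tested with an unadjusted p under 0.05 or with libraries that do not overlap in normalised CPM. Of each list the 3 highest and up to 2 with such a p are named, with Pitx1, Tbx4 and Tbx5. Exceptions are the neighbouring genes, of which none is named, the marker lists, and the listed gene not reported. Meis1, Pbx4, Pax9, Ezh2, Gm15050 and Hoxd4, the library values of Hoxb3, and the markers printed, were picked after their values were seen. No library pair agreed within counting noise.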

Additional observations from a re-analysis of the deposited data

How the results depend on the processing

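The count of 0 Hox genes called in either direction held in all 13 alternatives run (DESeq2, limma with either pseudocount, other scaling and filters, the replicate block and each library left out). Over all genes, 1 was called higher and 1 lower in mAC_Mito. DESeq2 called 2 higher and 2 lower, no filter on low counts 0 and 0, and limma on log2(FPKM + 1) 0 lower. Leaving out 1 library gave 0 to 3 higher and 0 to 1 lower. With a limit of 5 FPKM, 6 members counted as expressed in place of 16. Signs near 0 turned: Hoxc8 was 0.00053 and 0.00050 in limma with pseudocounts of 1 and 0.1. With 1 library left out the log2 fold change ran from -0.039 to 0.180 for Hoxa7, -0.250 to 0.139 for Hoxc6, -0.165 to 0.090 for Hoxc8, -0.072 to 0.191 for Hoxa5, -0.283 to 0.118 for Hoxa2 and -0.140 to 0.101 for Hoxa6. The cause was not tested. Hoxc13 ran from 0.755 to 1.07 and Hoxd9 from 1.23 to 1.89. With a minimum mean of 1 FPKM neither gene was tested. Members with an unadjusted p under 0.05 numbered 0 to 3, a count added after seeing the data. The 3 came without the low-count filter: Hoxc13 and Hoxd9, higher in mAC_Mito, and Hoxd4, lower.

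Replicate numbers did not pair the libraries: deviations of same-numbered libraries correlated at 0.125, -0.06 and -0.012. With the replicate block, 1 member, Hoxc13, had an unadjusted p under 0.05, and 0 were called. Depth limits the 7 members with at most 10 counts, which entered the fit without the filter alone.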
